A study of Mus musculus with 16 samples.

Results

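The regions described here are stretches of the mouse genome over which a Hoxb13 chromatin immunoprecipitation gave a single peak of 3000 bp or more. They were chosen by peak width. All peaks of at least 3000 bp in the 4 Hoxb13 peak lists, on chromosomes 1 to 19, X and Y, were merged wherever they shared at least 1 bp. This gave 353 wide regions of 17634 merged Hoxb13 regions, or 2.00%, from 484 wide peaks. Together they spanned 2224 kb. Their median width was 4.22 kb and the widest reached 96.2 kb. The other 17281 Hoxb13 regions had a median width of 0.490 kb. Because width chose the members, their widths are given as a description only.

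The libraries came from ventricles of mice at postnatal day 15. Paro/Neo mice had received the aminoglycoside antibiotics paromomycin and neomycin together, at 150 mg/kg and 2 times daily, by injection into the peritoneum, from postnatal day 7 over 7 days. Control mice received the vehicle, phosphate-buffered saline, over the same days. The labels give no strain, genotype or sex. For each sample the labels give ventricles of 2 hearts as biological duplicates, which can mean a pool of 2 hearts or 1 heart per replicate, so any p-value below measures the spread between libraries only. Each of the Hoxb13 and Meis1 antibodies, of which the Meis1 antibody is labelled Meis1/2 so that its peaks may include Meis2, had 2 Paro/Neo and 2 control libraries, and the 8 input samples of sheared chromatin were not analysed here. Whole ventricle holds cardiomyocytes, fibroblasts, endothelial cells and other cells, so a peak cannot be assigned to a cell type, and peak lists hold no expression values with which to check the tissue.

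Hoxb13 is a homeodomain transcription factor of the most posterior Hox group, and Meis1 is a cofactor of Hox proteins from the TALE homeodomain family. Both have been studied in the mouse heart as brakes on the division of cardiomyocytes after birth. A transcription factor that binds a short DNA motif usually gives a narrow peak at its site. Several heart muscle genes named below are among the most strongly transcribed genes of the ventricle. They include titin, the alpha heavy chain of cardiac myosin and the calcium pump of the sarcoplasmic reticulum.

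Promoter and microRNA sequences are printed for loci where the start of a gene or a whole microRNA gene lay inside a wide region called in all 4 Hoxb13 libraries. They are the sequences of the mouse reference (RefSeq, build GRCm38.p6, the same coordinates as mm10). Of the widest such regions with a start inside, 4 windows of the 250 bases before the start are shown, each 5′ to 3′ on the strand of its gene. Myh6 and Myh7 encode the alpha and beta heavy chains of cardiac myosin, Nmrk2 a muscle nicotinamide riboside kinase, and Pln phospholamban, the inhibitor of the calcium pump. The windows are chr14:54966608-54966857 on the minus strand for Myh6, chr14:54994550-54994799 on the minus strand for Myh7, chr10:81202038-81202287 on the minus strand for Nmrk2 and chr10:53337436-53337685 on the plus strand for Pln. Capitals mark TTTAT or its reverse complement ATAAA, a core that Hox proteins of the posterior groups prefer, and TGACAG or its reverse complement CTGTCA, the core of Meis proteins.
Myh6: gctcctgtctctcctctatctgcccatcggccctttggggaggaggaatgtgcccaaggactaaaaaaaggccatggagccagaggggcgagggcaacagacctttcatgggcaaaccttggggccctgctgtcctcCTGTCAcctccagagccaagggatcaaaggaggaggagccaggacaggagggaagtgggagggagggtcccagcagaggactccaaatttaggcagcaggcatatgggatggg
Myh7: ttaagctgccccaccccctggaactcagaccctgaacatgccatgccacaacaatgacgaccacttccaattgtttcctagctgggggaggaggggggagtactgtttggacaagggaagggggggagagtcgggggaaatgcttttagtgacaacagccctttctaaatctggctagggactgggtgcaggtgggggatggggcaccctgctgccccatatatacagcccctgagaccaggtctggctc
Nmrk2: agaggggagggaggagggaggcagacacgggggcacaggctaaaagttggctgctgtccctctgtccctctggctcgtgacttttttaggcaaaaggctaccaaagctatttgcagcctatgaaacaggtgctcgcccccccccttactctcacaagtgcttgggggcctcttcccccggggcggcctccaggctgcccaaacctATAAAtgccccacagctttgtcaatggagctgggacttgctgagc
Pln: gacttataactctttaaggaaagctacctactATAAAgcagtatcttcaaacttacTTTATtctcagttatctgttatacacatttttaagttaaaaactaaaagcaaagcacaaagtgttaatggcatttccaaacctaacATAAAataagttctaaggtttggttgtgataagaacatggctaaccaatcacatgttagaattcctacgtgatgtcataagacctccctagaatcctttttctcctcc

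The window of Pln held the TTTAT core 3 times on either strand and that of Nmrk2 held it 1 time, as part of a TATAAA box 46 bases before the start. The window of Myh6 held the Meis core 1 time and no TTTAT core. The window of Myh7 held neither, and neither did those of Fhl2 and Cmtm5, which also had a listed start inside a wide region called in all 4 libraries. For Fhl2 that start lay within the gene, and the first base of its table entry lay outside the wide regions. In all, 5 motifs were counted on both strands of the 250-base windows, of which 152 lay in wide regions and 32851 in the whole promoter table. TTTAT was present in 20.4% of the windows in wide regions and 37.3% of all windows. CAATAAA, a longer form preferred by the posterior Hox group and holding ATAAA within it, was present in 1.32% of windows in wide regions and 4.20% of all windows. TGACAG was present in 11.2% and 15.9% of the same windows. TATAAA, which also holds ATAAA, was present in 8.55% of windows in wide regions and 12.4% of all, and AGATAA, the core of GATA factors, in 5.92% and 9.99%. The median GC content was 61.2% in the windows in wide regions, against 52.4% over all windows. All 5 motifs were thus less frequent in the windows in wide regions, whose GC content was higher. Most of the wide regions lay outside any promoter window, so these counts say nothing of their bodies.

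Of 1180 microRNA genes in the table, 16 lay in wide regions, a share near the 1.44% of all protein-coding genes under them. Of the 16, 11 lay in regions called in all 4 libraries, and 6 remained without Paro/Neo replicate 2, the library with by far the most wide peaks. The pair Mir208a and Mir208b, which lie in introns of the cardiac myosin heavy chain genes, sat in the 40.8 kb region over Myh6 and the end of Myh7. Mir1a-1 and Mir133a-2, a muscle microRNA pair, sat in the 20.9 kb region over their host transcript Mir1a-1hg. Both regions had a wide peak in every library, though not over each of the 4 genes. Mir208a and Mir133a-2 remained in wide regions without Paro/Neo replicate 2, and Mir208b and Mir1a-1 did not. The mature sequences follow for those of these 4 genes that the RefSeq table holds, with the seed, bases 2 to 8, in capitals. They lie at chr14:54949072-54949093 and chr14:54949107-54949128 for miR-208a-3p and miR-208a-5p, at chr14:54975710-54975731 and chr14:54975745-54975766 for miR-208b-3p and miR-208b-5p, all on the minus strand, and at chr2:180389057-180389079 on the plus strand for miR-1a-1-5p. 
miR-208a-3p: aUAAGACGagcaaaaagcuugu
miR-208b-3p: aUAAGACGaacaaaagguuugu
miR-208a-5p: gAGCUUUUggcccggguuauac
miR-208b-5p: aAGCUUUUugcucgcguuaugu
miR-1a-1-5p: aCAUACUUcuuuauaugcccaua
The 3p arms of miR-208a and miR-208b shared the seed UAAGACG, and their 5p arms shared the seed AGCUUUU. In the region that holds them, peaks covered 62.2% of the length in Paro/Neo replicate 1 and 100% in Paro/Neo replicate 2, against 71.3% in control replicate 1 and 44.9% in control replicate 2.

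The 4 libraries contributed very unequally to the wide regions. Wide peaks numbered 25 of 821 peaks in Paro/Neo replicate 1 and 351 of 16963 in Paro/Neo replicate 2, against 74 of 5202 in control replicate 1 and 34 of 1121 in control replicate 2. Paro/Neo replicate 2 stood apart from the other libraries: it called all 353 wide regions, held a wide peak in 350 of them and the only wide peak in 297. Of all the peaks of a library, 3.05% were wide in Paro/Neo replicate 1 and 2.07% in Paro/Neo replicate 2, against 1.42% in control replicate 1 and 3.03% in control replicate 2. The share of a library's covered length that lay in wide peaks was 28.5% and 17.4% in Paro/Neo replicates 1 and 2, against 14.2% and 26.1% in control replicates 1 and 2. By its share of wide peaks, the library with the longest list was therefore not the highest. Sequencing depth is unknown, so how far a longer list reflects deeper sequencing was not tested. Counts of regions, genes and list members are therefore given without Paro/Neo replicate 2 as well, and the values of single genes by library.

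The mean number of wide peaks per library was 188 ± 231 for Paro/Neo and 54.0 ± 28.3 for control libraries (SD, n = 2 each). The difference in log2(number + 0.5), Paro/Neo minus control, was 0.90, with p = 1.00 in an exact two-sided permutation test whose smallest possible p is 0.333. The Paro/Neo libraries thus held both the lowest and the highest number. With every list cut to the 821 peaks of highest fold, wide peaks numbered 25 and 71 in Paro/Neo replicates 1 and 2, against 43 and 31 in control replicates 1 and 2. The log2 difference was -0.99 without Paro/Neo replicate 2.

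**Figure D1:**
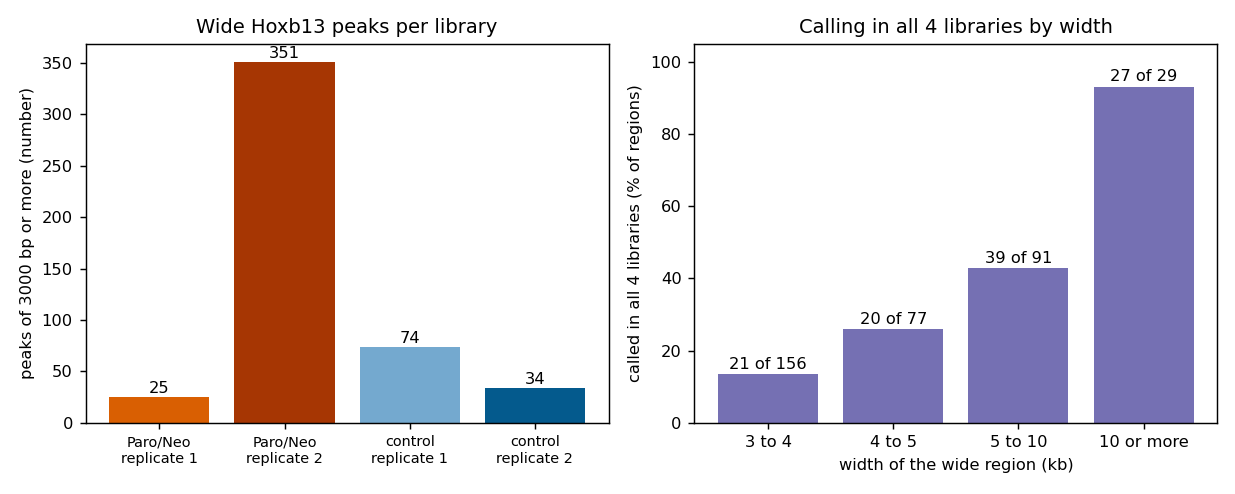
Left, the number of Hoxb13 peaks of 3000 bp or more in each library, with 351 in Paro/Neo replicate 2 and 25 to 74 in the other libraries. Right, the percent of wide regions called in all 4 Hoxb13 libraries by width class, with the counts above the bars, from 21 of 156 regions of 3 to 4 kb to 27 of 29 regions of 10 kb or more.

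A library counted as calling a region if any of its peaks, whatever the width, lay there. Of the 353 wide regions, 107 were called in all 4 libraries, 63 in 3, 113 in 2 and 70 in 1, which was Paro/Neo replicate 2 each time. The share called in all 4, 30.3% (95% exact binomial interval 25.6% to 35.4%, counting error only), compares with 2.55% of all merged Hoxb13 regions, though a longer region has more room for a peak. By library, peaks fell in 135 wide regions in Paro/Neo replicate 1 and 353 in Paro/Neo replicate 2, against 280 in control replicate 1 and 145 in control replicate 2. Calling in all 4 libraries was more frequent the wider the region: 21 of 156 regions of 3 to 4 kb, 20 of 77 of 4 to 5 kb, 39 of 91 of 5 to 10 kb and 27 of 29 of 10 kb or more. All 11 regions of 20 kb or more were called in all 4. Merging only the other 3 libraries left 75 wide regions, 1.39% of 5396 merged regions, with a median width of 4.68 kb and a widest of 26.4 kb. Of these 75, 65 were called in all 3 libraries, or 86.7%, against 8.97% of all merged regions of those libraries.

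The widest peaks of Paro/Neo replicate 2 were seen as rows of shorter peaks in the other libraries. Over the 11 regions of 20 kb or more, the median number of peaks per region was 4 in Paro/Neo replicate 1 and 1 in Paro/Neo replicate 2, against 9 in control replicate 1 and 6 in control replicate 2. Across the 107 regions called in all 4 libraries, the median covered length was 18.1% in Paro/Neo replicate 1 and 100% in Paro/Neo replicate 2, against 57.3% in control replicate 1 and 23.8% in control replicate 2. Paro/Neo replicate 2 covered the most in 104 of the 107 regions, and Paro/Neo replicate 1 the least in 77 and control replicate 2 the least in 30. The order of the libraries by median cover was their order by list length. Covered shares over these 107 regions ranked alike in the 3 shorter lists, as a description across regions that share libraries: Spearman's rho was 0.52 between Paro/Neo replicate 1 and control replicate 1, 0.61 between Paro/Neo replicate 1 and control replicate 2, and 0.70 between the control replicates. Against Paro/Neo replicate 2, whose cover was at or near 100% in most of these regions, rho was -0.14 for Paro/Neo replicate 1, -0.38 for control replicate 1 and -0.29 for control replicate 2.

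Peaks at the threshold show how gradual the choice is. The wide peaks nearest the limit were 3011 bp over Bmpr2 in Paro/Neo replicate 2, 3017 bp at Txnip in control replicate 1 and 3023 bp in Fhl2 in control replicate 2. Just below it lay peaks of 2998 bp at Adprhl1, 2996 bp in Ryr2 and 2995 bp in Pdlim5, all in Paro/Neo replicate 2. Wide peaks had higher fold enrichment than the median peak of their own list. The median fold over local background, the authors' value, was 4.64 for wide peaks against 3.53 for all peaks in Paro/Neo replicate 1 and 3.60 against 3.10 in Paro/Neo replicate 2. In control replicates 1 and 2 it was 4.03 against 3.28 and 4.37 against 3.46.

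In 17 regions a wide peak was present in all 4 libraries, in 11 regions in 3 libraries, in 25 in 2 and in 300 in 1. Among the 17 were regions over Ttn (2 regions), Fhl2, the Cmtm5, Myh6 and Myh7 cluster, Myh7, Mir1a-1hg, Myl2 with Ccdc63, Pln with Cep85l, Plin4 with Hdgfl2, Ldb3, Trdn, Lrrc10 with Cct2, Dusp1, Ucp2 with Dnajb13, and a ribosomal RNA locus. Their median covered length was 54.4% in Paro/Neo replicate 1 and 100% in Paro/Neo replicate 2, against 75% in control replicate 1 and 49.3% in control replicate 2. The ribosomal RNA locus on chromosome 17, which holds Rn18s-rs5 and AY036118, differed from the other 16. Peaks covered 99.7% of its 5.81 kb in Paro/Neo replicate 1 and 100% in Paro/Neo replicate 2, against 99.9% in each control library. Its fold was the lowest of the set, at 1.60 and 1.68 in Paro/Neo replicates 1 and 2, against 1.73 and 1.77 in control replicates 1 and 2. It was also the one stretch at which every Meis1 library had a peak of 3000 bp or more, so for this locus the width was shared by both antibodies.

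**Figure D2:**
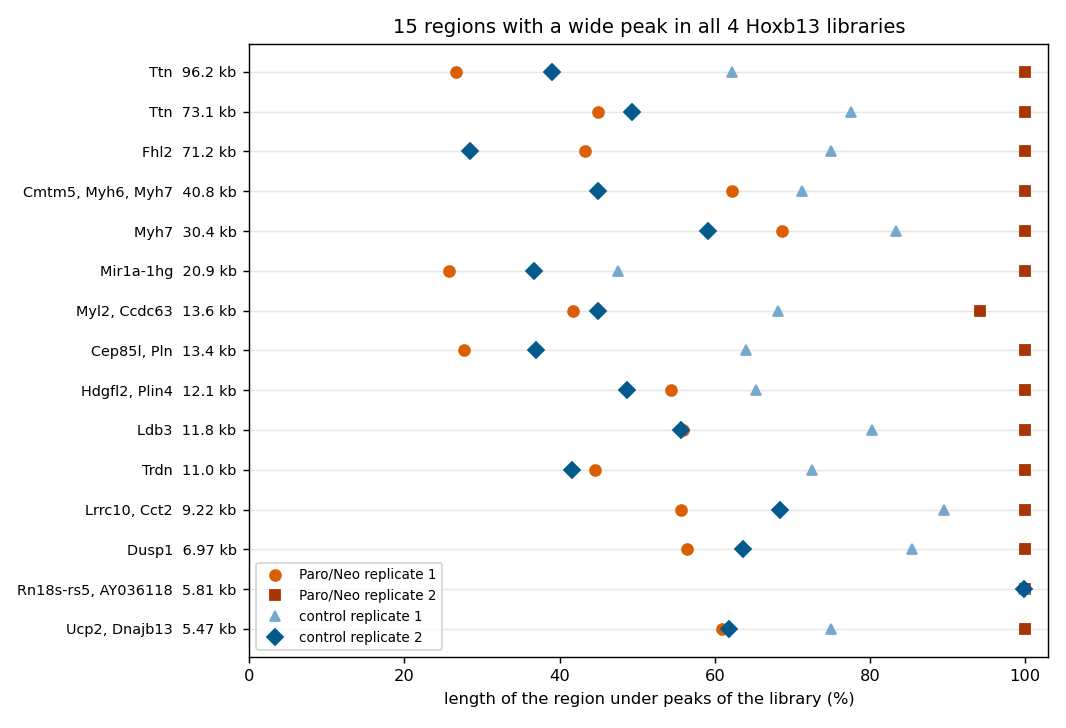
The percent of the region's length under Hoxb13 peaks of any width in each library, for 15 of the 17 regions with a wide peak in all 4 libraries, ordered by width from 96.2 kb (top) to 5.47 kb. Paro/Neo replicate 2 covers 94.2% to 100% of each region, and the ribosomal RNA locus is covered almost whole in every library.

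The regions lay mostly on genes. Of the 353, 296 overlapped a protein-coding gene (83.9%, against 73.8% of the other Hoxb13 regions), 16 overlapped only another kind of gene and 41 no gene. With Paro/Neo replicate 2 left out, 80.0% of the 75 wide regions and 77.8% of the other regions overlapped a protein-coding gene, a far smaller gap. The protein-coding genes under them numbered 315 of 21887, or 1.44%, and 52, or 0.238%, without Paro/Neo replicate 2. Over the 315 genes, the median share of the gene body covered by wide regions was 14.3%, with quartiles of 4.23% and 46.7%. At least 50% was covered in 74 genes, at least 90% in 47 and all of it in 36. The wide regions of the other 3 libraries covered at least 50% in 16 genes, at least 90% in 9 and all of it in 3, with a median of 23.9%. Genes covered whole were short, with a median length of 2.40 kb, and the longest of them was Atp2a2 at 48.7 kb. The 132 genes covered to less than 10% had a median length of 45.3 kb. The share covered thus went with the length of the gene, Atp2a2 and a few other long genes apart. With a width limit of 3000 bp, this follows in large part from the choice of the regions. At least 2 wide regions lay on each of 25 genes and at least 3 on each of 6.

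Titin (Ttn), the elastic filament that spans the sarcomere from Z-disc to M-line, carried the widest region of all at chr2:76699718-76795878. With 8 wide regions, 92.1% of its 279 kb was covered. Peaks of any width covered 24.9% of the gene in Paro/Neo replicate 1 and 94.5% in Paro/Neo replicate 2, against 59.2% in control replicate 1 and 31.3% in control replicate 2. The gene held 43 and 11 peaks in Paro/Neo replicates 1 and 2, against 67 and 43 in control replicates 1 and 2. The Paro/Neo values thus lay on both sides of the control values, and the library with the most cover had the fewest separate peaks. The ryanodine receptor Ryr2, the calcium release channel of the sarcoplasmic reticulum and at 554 kb one of the longest genes here, showed another form. Its 25 wide regions covered 25.1% of the body, and each of them had a wide peak in 1 library, Paro/Neo replicate 2. Peaks of any width covered 0.143% of Ryr2 in Paro/Neo replicate 1 and 46.5% in Paro/Neo replicate 2, against 2.40% in control replicate 1 and 0.317% in control replicate 2.

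Fhl2, a LIM-domain protein of the Z-disc and nucleus of cardiomyocytes, was covered to 97.4% by 2 wide regions, the wider one at chr1:43117596-43188746. Peaks covered 36.3% of Fhl2 in Paro/Neo replicate 1 and 97.4% in Paro/Neo replicate 2, against 67.7% in control replicate 1 and 22.2% in control replicate 2. Atp2a2, the calcium pump of the sarcoplasmic reticulum, lay whole in a region of 53.9 kb at chr5:122449173-122503039. Peaks covered 8.93% of Atp2a2 in Paro/Neo replicate 1 and 100% in Paro/Neo replicate 2, against 52.9% in control replicate 1 and 7.87% in control replicate 2. The groups overlapped at both genes.

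**Figure D3:**
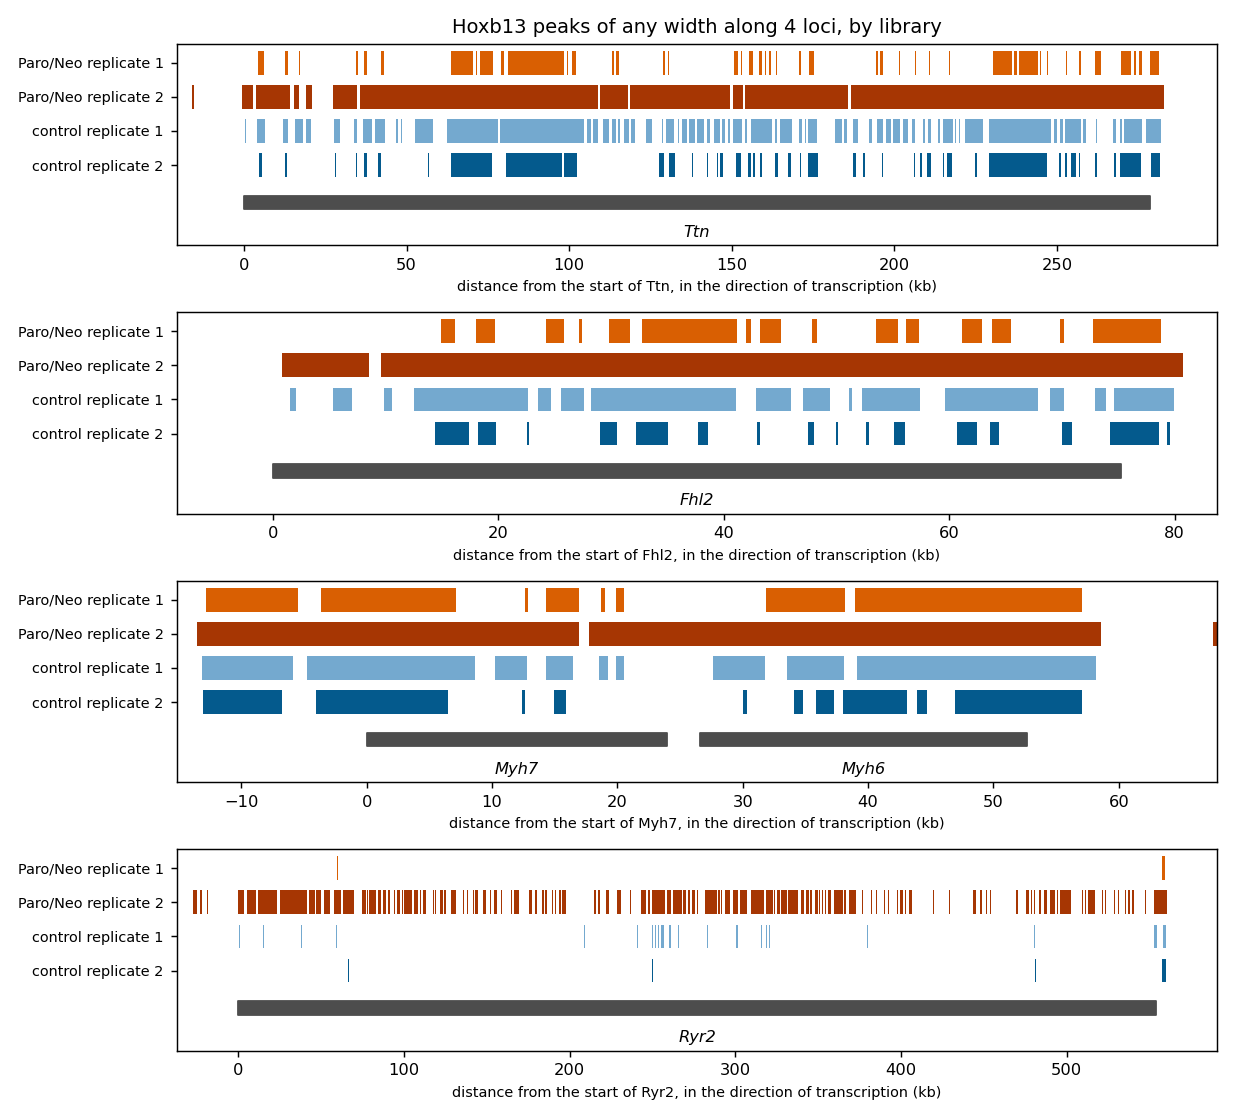
Hoxb13 peaks of any width (coloured bars, 1 row per library) along Ttn, Fhl2, Myh7 with Myh6, and Ryr2 (grey bars), in kb from the start of the first gene in the direction of transcription. Paro/Neo replicate 2 shows near-continuous peaks over Ttn, Fhl2 and the myosin genes where the other libraries show interrupted ones. Over Ryr2 it shows many separate peaks, wide ones among them, where the others show fewer.

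Genes of the contractile apparatus were the most frequent among the lists examined, with 20 of 40 sarcomere genes under a wide region, 14 of them under one called in all 4 libraries, against 1.44% of all protein-coding genes. Here and in the lists below a call belongs to the region, so the calling peak can lie outside the gene. Peaks of any width lay on 9 and 32 of the 40 genes in Paro/Neo replicates 1 and 2, against 20 and 9 in control replicates 1 and 2. Of the 40, 10 remained under a wide region without Paro/Neo replicate 2, among them Actc1, Myh6, Myh7, Myl2, Ttn, Tnnt2, Tpm1, Ldb3 and Xirp1. The thick filament gave Myh6, covered over 100% of its 26.1 kb, and Myh7, over 96.4% of 23.9 kb. Peaks covered 77.1% of Myh6 in Paro/Neo replicate 1 and 100% in Paro/Neo replicate 2, against 85.4% in control replicate 1 and 53.6% in control replicate 2. For Myh7 the shares were 45.2% and 96.4% in Paro/Neo replicates 1 and 2, against 61.5% and 32.1% in control replicates 1 and 2. Myh6 was thus more fully covered than Myh7 in each of the 4 libraries. The regulatory light chain Myl2 was covered over 64.5% of its body by wide regions, the essential light chain Myl3 over 28.2%, and the myosin-binding protein Mybpc3 over 1.53%.

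The thin filament was represented by cardiac alpha-actin (Actc1, 100%), troponin I (Tnni3, 100%), troponin T (Tnnt2, 94.2%) and alpha-tropomyosin (Tpm1, 70.4%). At Actc1 peaks covered 48.6% of the gene in Paro/Neo replicate 1 and 100% in Paro/Neo replicate 2, against 99.8% in control replicate 1 and 70.7% in control replicate 2. At Tnni3 the cover was 0% and 100% in Paro/Neo replicates 1 and 2, against 3.08% and 0% in control replicates 1 and 2, so its body rested on a single library. The actin filament nucleator Lmod2 was covered over 46.1%. Of the Z-disc genes, Ldb3 (cypher) had 6 wide regions over 65.3% of its body, Tcap (telethonin) was covered whole, and Actn2, alpha-actinin, was covered over 22.0% by 4 regions. Tcap also rested on a single library, with a cover of 0% and 100% in Paro/Neo replicates 1 and 2, against 0% in both control replicates. Desmin (Des), Xirp1, Pdlim5, Synpo2l and Myoz2 were covered over 3.59% to 32.2%.

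Of 26 calcium-handling genes, 6 lay under wide regions, 5 of them under a region called in all 4 libraries: Ryr2, Atp2a2, Pln, Trdn and Jph2. The sixth was Tmem38a. Atp2a2, Pln and Trdn remained without Paro/Neo replicate 2. Phospholamban (Pln) was covered whole, and peaks covered 29.2% of it in Paro/Neo replicate 1 and 100% in Paro/Neo replicate 2, against 79.8% in control replicate 1 and 44.8% in control replicate 2. Triadin (Trdn), which anchors the release complex, had a single region of 11 kb that covered 2.79% of its 393 kb, wide in all 4 libraries. Junctophilin 2 (Jph2), which holds the sarcoplasmic reticulum to the T-tubule, was covered over 24.0% by 3 regions. Among 22 genes of ion channels and pumps, 4 were covered, among them the potassium channel genes Kcnj11 over 69.3% and Kcnh2 over 5.97%. Of 15 intercalated-disc genes, Gja1 (connexin 43, 38.9%), Coro6 (19.7%) and Jup (plakoglobin, 14.4%) lay under wide regions. When Paro/Neo replicate 2 was left out, none of the 22 channel and pump genes and only Gja1 of the disc genes remained.

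The share of the body covered varied among genes of energy metabolism. A list of 66 genes held the tricarboxylic acid cycle, respiratory chain and ATP synthase, with some mitochondrial carriers and creatine kinases. Of these 66, 10 lay under wide regions, with a median 13.1% of the body covered. The adenine nucleotide carrier Slc25a4 was covered whole, and the muscle creatine kinase Ckm over 61.6%, while Ckmt2 was touched over 0.531%. At Slc25a4 peaks covered 0% in Paro/Neo replicate 1 and 100% in Paro/Neo replicate 2, against 49.2% in control replicate 1 and 2.64% in control replicate 2. Of 42 fatty acid genes 4 were covered, with a median of 6.10%, 79.4% for the fatty acid carrier Fabp3 and 4.03% for lipoprotein lipase (Lpl). The region at Ucp2 overlapped 0.858% of that gene and was wide in all 4 libraries, lying almost wholly past the gene's end. Of 28 genes of glycolysis and the hypoxia response 4 lay under wide regions, 0 of them under one called in all 4 libraries. Their median share of the body covered was 51.8%. Pgam2 was covered whole, Gapdh over 64.3%, Eno3 over 39.2% and Vegfa, a gene of the hypoxia response, over 22.2%. By library, the median of these 4 genes was 0% and 65.0% in Paro/Neo replicates 1 and 2, against 7.88% and 0% in control replicates 1 and 2. None of the genes of these 3 lists remained without Paro/Neo replicate 2. Myoglobin (Mb), the oxygen store of muscle, was covered over 20.9% by a region of 10.4 kb that was called in all 4 libraries, and it remained.

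A second group with high shares was the immediate-early and stress genes, many of them short genes induced within minutes of a stimulus. A region of 3000 bp or more can hold a short gene whole, so these shares cannot be told apart from gene length. Of the 34 genes of this list, peaks of any width lay on 7 and 29 in Paro/Neo replicates 1 and 2, against 23 and 10 in control replicates 1 and 2. Under wide regions lay 11, 8 of them under regions called in all 4 libraries, and the median covered share was 100%. They were the AP-1 genes Jun, Junb, Jund and Fosl2, the phosphatase Dusp1, the zinc-finger genes Klf2, Klf9 and Zfp36, and Ier2, Cebpb and Per1. By library, peaks of any width covered a median 0% and 100% of these 11 genes in Paro/Neo replicates 1 and 2. In control replicates 1 and 2 the medians were 56.6% and 35.8%. At Dusp1 peaks covered 62.8% and 100% in Paro/Neo replicates 1 and 2, against 100% and 68.0% in control replicates 1 and 2. At Jun they covered 22.9% and 100% in Paro/Neo replicates 1 and 2, against 100% and 83.8% in control replicates 1 and 2. For Klf2, which is also an endothelial gene, the shares were 37.6% and 100% in Paro/Neo replicates 1 and 2, against 100% and 75.6% in control replicates 1 and 2. Jun, Jund, Dusp1 and Klf2 remained without Paro/Neo replicate 2. Fosl2, Klf9 and Per1 were covered less, over 0.894%, 10.6% and 25.9%.

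Of 27 endothelial markers, Eng, Egfl7, Klf2 and Notch1 lay under wide regions, and Klf2 alone remained without Paro/Neo replicate 2. None of the 22 extracellular matrix and fibroblast genes, 12 smooth muscle and pericyte genes, 16 leukocyte genes, 8 erythroid genes and 28 genes of other tissues did. Of 26 cardiac transcription factor genes 2 did: Hand2, covered over 98.7% of 3.54 kb, and Myocd, over 6.46%. Peaks covered 19.1% of Hand2 in Paro/Neo replicate 1 and 80.1% in Paro/Neo replicate 2, against 98.7% in control replicate 1 and 35.7% in control replicate 2, and its only wide peak was that of control replicate 1. Of all protein-coding genes, 1.44% lay under a wide region. At that share a short list is often empty, so the empty lists here say little of their genes. None of the 39 Hox cluster genes, 11 TALE genes (Meis1 included), 28 cell cycle drivers, 10 CDK inhibitors and pocket protein genes or 11 calcineurin and NFAT genes lay under a wide region. Of the remaining lists, 4 of 21 genes of the fetal and load response did (Myh7, Xirp1, Fhl2 and Hspb7), 5 of 21 cytoskeletal genes and 4 of 25 translation genes. When Paro/Neo replicate 2 was left out, 3 of the fetal and load response, 1 of the cytoskeletal, 1 of the translation and 1 of the cardiac transcription factor genes (Hand2) remained. Over all 25 lists, 81 of 582 genes lay under a wide region, and 25 without Paro/Neo replicate 2. The lists were made for heart muscle, with earlier results of these data known, so their shares describe these genes and are not independent evidence of a pattern.

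**Figure D4:**
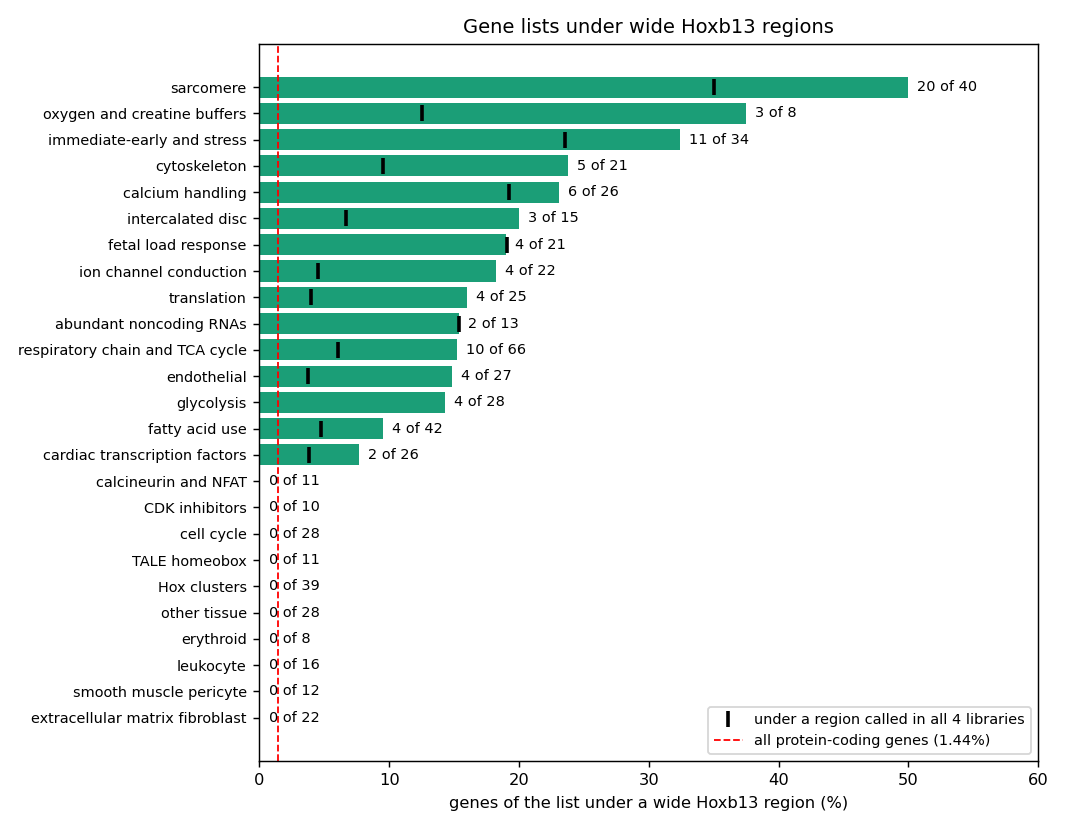
The percent of the genes of each list that lie under a wide Hoxb13 region (bars, with counts), the percent under a region called in all 4 libraries (black ticks), and the 1.44% of all protein-coding genes (dashed line). Sarcomere genes lead with 20 of 40, and 10 of the 25 lists have none.

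Among long noncoding RNAs, Malat1 and Neat1, 2 abundant nuclear transcripts, were covered over 100% and 94.5%, and both remained without Paro/Neo replicate 2. The region at Malat1 was covered to 18.5% in Paro/Neo replicate 1 and 100% in Paro/Neo replicate 2, against 77.3% in control replicate 1 and 29.8% in control replicate 2. Of the named regions with fewer muscle genes, that over Asb2, a ubiquitin ligase subunit of muscle, and Fam181a spanned 18.5 kb, and one of 19.6 kb held Nmrk2 with Dapk3 and Atcay. Plin4, a lipid droplet protein, Dbp, a circadian transcription factor, and Txnip, which restrains glucose uptake, were covered whole. At Plin4 peaks covered 52.6% and 100% in Paro/Neo replicates 1 and 2, against 65.6% and 51.5% in control replicates 1 and 2. At Dbp they covered 0% and 100% in Paro/Neo replicates 1 and 2, against 47.9% and 0% in control replicates 1 and 2.

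Wide regions reached past the 3′ ends of genes far more often than over their first bases. The first and last base are those of the whole table entry, so a further start within a gene, as at Fhl2, did not count as a first base. Strand was known for 251 of the 315 genes. The wide regions covered the last base but not the first in 135 of them, the first but not the last in 42, both in 39 and neither in 35. Of the 42 genes with known strand that remained without Paro/Neo replicate 2, 23 had the last base alone covered, 8 the first alone, 3 both and 8 neither. Counted by region, 137 of 353 (38.8%) held the last base of a protein-coding gene, against 2.34% of the other Hoxb13 regions and 3.07% of all merged regions. A longer region holds a gene end more easily, and the widths of the sets differ. Of 461 other regions of 2000 bp or more, which reached 3300 bp with a median of 2.37 kb, 16.5% held a last base. Of the 156 wide regions under 4000 bp, with a median of 3.45 kb, 25.6% did. Length and membership cannot be told apart in these shares. First bases were held by 20.4% of the wide regions, 23.0% of the other regions and 21.5% of the other regions of 2000 bp or more. Of the 107 wide regions called in all 4 libraries, 59 held a last base and 35 a first base. For all listed starts of any gene, those within genes included, the shares were 27.8% of the wide regions and 29.9% of the others, beside 29.8% of all merged regions. Among the other 3 libraries, 28.0% of the 75 wide regions held a last base and 13.3% a first base, against 2.10% and 31.5% of the other regions, and 2.46% of all merged regions of the 3 libraries held a last base.

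By peaks of any width, the end was covered more than the start in each library. For genes of 3 kb or more under wide regions (226 genes), the kb after the end was covered to 11.3% in Paro/Neo replicate 1 and 71.2% in Paro/Neo replicate 2, against 28.4% in control replicate 1 and 12.0% in control replicate 2. The kb before the start of the same genes was covered to 3.99% and 33.2% in Paro/Neo replicates 1 and 2, against 14.2% and 5.54% in control replicates 1 and 2. The end was thus covered 2.83 and 2.14 times as much as the start in Paro/Neo replicates 1 and 2, against 2.00 and 2.17 times in control replicates 1 and 2. Over the other 14456 genes of that length the same ratio was 0.293 and 0.450 in Paro/Neo replicates 1 and 2, against 0.289 and 0.309 in control replicates 1 and 2. The genes were chosen by the same peaks, so no test is given. With narrower peaks only, the ratio over the 226 genes was 2.18 and 0.479 in Paro/Neo replicates 1 and 2. In control replicates 1 and 2 it was 1.73 and 1.54. By its narrower peaks, Paro/Neo replicate 2 thus covered the start more than the end. When the genes were chosen from the wide peaks of the other 3 libraries (36 genes), the ratio by peaks of any width was 6.57 in Paro/Neo replicate 1 and 1.71 in Paro/Neo replicate 2, which then had no part in the choice, against 2.68 in control replicate 1 and 3.42 in control replicate 2.

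**Figure D5:**
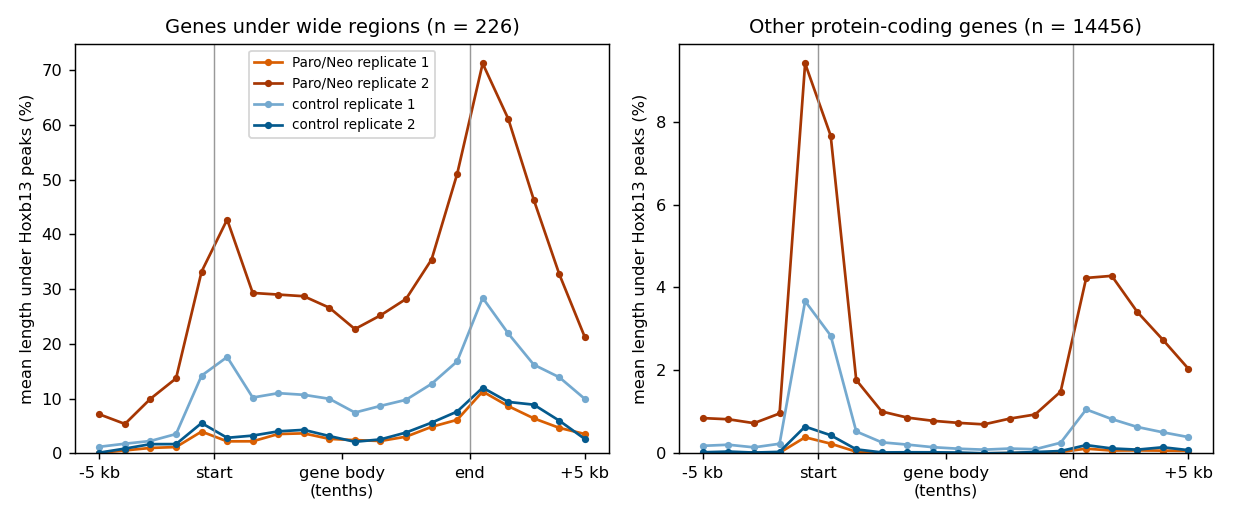
Mean percent of length under Hoxb13 peaks of any width in each library, from 5 kb before the start to 5 kb past the end, in 1 kb steps outside and 10 equal bins inside the gene, for 226 genes under wide regions (left) and 14456 other protein-coding genes (right) of 3 kb or more. The left panel is highest in the kb past the end in all 4 libraries, the right panel in the kb before the start. The vertical scales differ.

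Short genes covered whole showed the same asymmetry. For 14 genes that lay alone in a region holding the whole gene, the region reached further past the end than before the start in 14, with a median of 1.90 kb past the end and 0.444 kb before the start. Without Paro/Neo replicate 2 there were 3 such genes, again all 3 with the longer reach past the end. At Slc25a4 it reached 6.23 kb past the end and 0.662 kb before the start, at Dusp1 3.13 kb and 0.960 kb, and at Actc1 2.35 kb and 0.0310 kb. The 41 wide regions without any gene lay close to genes, at a median 0.515 kb from the nearest protein-coding gene, and 35 lay within 5 kb. They were 6 of the 75 wide regions when Paro/Neo replicate 2 was left out. Strand was known for 25 of those neighbours, and 24 of the 25 regions lay past the end of the gene, or 96.0%. Among the other Hoxb13 regions without a gene and within 5 kb of one, 73.2% lay past the end, and 95.7% of those that were 2000 bp or more wide and at most 3300 bp, which is near the 96.0% of the wide gene-free regions. Examples were regions past the ends of Casq2, the calcium store protein calsequestrin, Myom1, an M-line protein, and Cd36, the fatty acid transporter. The widest region without a gene, 13.1 kb at chr17:10191289-10204436, began 2.03 kb past the end of Qk, an RNA-binding protein, and was called in all 4 libraries.

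Few wide regions separated the Paro/Neo from the control libraries. Regions called in both Paro/Neo and neither control library numbered 2 of 353 (0.567%), against 0.181% of all merged regions. Regions called in both control and neither Paro/Neo library numbered 0, against 0.0170% of all merged regions. In 3 wide regions both Paro/Neo libraries covered more of the length than both control libraries did, where 0.471% of all merged regions did so. In 1 they covered less, where 0.0851% of all merged regions did. The 2 regions of the first kind were 3.12 kb over Gm51293 and 3.40 kb just past the end of Cacna1c, the L-type calcium channel. At the Cacna1c region, cover was 20.4% and 100% in Paro/Neo replicates 1 and 2, against 0% in both control replicates. At the Gm51293 region it was 13.6% and 100% in Paro/Neo replicates 1 and 2, against 0% in both control replicates. Cover set apart 1 more, a 3.96 kb region on Ryr2, at 13.4% and 100% in Paro/Neo replicates 1 and 2, against 10.2% and 0% in control replicates 1 and 2. The region covered less in Paro/Neo was 3.73 kb on chromosome 14 without a gene. Its cover was 64.9% and 66.8% in Paro/Neo replicates 1 and 2, against 78.4% and 100% in control replicates 1 and 2. Its widest Hoxb13 peak had a fold of 1.44 to 1.61 by library, against list medians of 3.10 to 3.53. Meis1 peaks also lay there, with a fold of 1.54 in Paro/Neo replicate 2 and 1.47 in control replicate 2. With 2 libraries a group these counts have no test, and the wide regions themselves were nearly all defined by a Paro/Neo library.

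Meis1 peaks were few in the wide regions and narrow. A Meis1 peak lay in 6.52% of the wide regions in Paro/Neo replicate 1 and 5.38% in Paro/Neo replicate 2, against 14.2% in control replicate 1 and 10.8% in control replicate 2. The share averaged 5.95% ± 0.801 over Paro/Neo libraries and 12.5% ± 2.40 over control libraries (SD, n = 2 each). The difference of -6.52 percentage points gave p = 0.333, the smallest an exact permutation test of 2 against 2 libraries can give. The deposited names of the second-replicate Meis1 lists disagree with their labels about the group, and with these lists exchanged the difference was -1.13. Over the other Hoxb13 regions the shares were 2.78% and 2.29% in Paro/Neo replicates 1 and 2, against 6.19% and 5.97% in control replicates 1 and 2. Per length, wide regions held fewer Meis1 peaks than the other regions: 10.8 and 8.54 Meis1 peaks per Mb of wide region in Paro/Neo replicates 1 and 2, against 24.7 and 18.9 in control replicates 1 and 2. The other Hoxb13 regions held 43.8 and 36.0 per Mb in Paro/Neo replicates 1 and 2, against 97.7 and 94.5 in control replicates 1 and 2. Any overlap counts a peak, which raises this density in short regions, and by length under Meis1 peaks the gap was smaller. Meis1 peaks covered 0.630% and 0.672% of the wide regions' length in Paro/Neo replicates 1 and 2, against 1.24% and 1.16% in control replicates 1 and 2. Of the other regions' length they covered 1.10% and 0.916% in Paro/Neo replicates 1 and 2, against 2.49% and 2.50% in control replicates 1 and 2.

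A Meis1 peak in 2 or more libraries was found in 33 wide regions (9.35%), against 4.85% of all merged regions, and 294 wide regions held none. With the Hoxb13 list of Paro/Neo replicate 2 left out, these were 7 of 75, or 9.33%, against 3.54%. All 4 Meis1 libraries had a peak in 15 wide regions, and in 9 of them all 4 Hoxb13 libraries did too, among them those at Lrrc10, a cardiac leucine-rich repeat protein, Mb, Dusp1 and Hspb7, a cardiac small heat shock protein. At Lrrc10 the Meis1 peaks were 212 bp and 273 bp wide in Paro/Neo replicates 1 and 2, against 275 bp and 298 bp in control replicates 1 and 2. Each of them crossed the edge of a Hoxb13 region of 9.22 kb and lay only in part inside it. The Meis1 fold there was 4.79 and 6.24 in Paro/Neo replicates 1 and 2, against 8.52 and 8.69 in control replicates 1 and 2. At Myh6, Meis1 peaks of both control libraries overlapped the promoter window printed above (54966724 to 54966977 and 54966779 to 54966970), and the Meis core in that window lay just outside them, at 54966715 to 54966720. Apart from the ribosomal RNA locus and a gene-free stretch on chromosome 14 in Paro/Neo replicate 2, no Meis1 peak on the analysed chromosomes reached 3000 bp.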

How the data were processed

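Hoxb13 and Meis1 ChIP-seq peak lists of mouse ventricle were used as deposited, 1 list per library. The submitters' processing notes name FastQC 0.11.5, Bowtie2, Picard 1.127, MACS2, HOMER and build mm10; the sources used here do not state caller options, control or filters, and depth is unknown. In these lists the authors give a fold enrichment (a ratio to local background), −log10 p and −log10 q values and a score for each peak; the deposited score was not used. Mitochondrial peaks and unplaced sequences were left out.

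Peaks of 3000 bp or more were merged where they shared 1 bp. Genes, strand and sequences came from RefSeq tables of GRCm38.p6; of 585 list genes 582 matched, and strand was known for 251 of 315 genes. A gene body was the whole table entry. Groups came from the labels, also for the second Meis1 replicates, whose list names disagree, and were compared by exact two-sided permutation tests over the 6 orders of 4 libraries. Counts without Paro/Neo replicate 2 on gene ends, gene bodies, lists and microRNAs, and the wide regions under 4000 bp, were alternatives chosen after seeing the data. Merging, cover and tests were tested on simulated data. The members, gene lists and tests were chosen with earlier results of these data known. Genes named were those of the 15 widest regions, 15 further regions called in all 4 libraries, the 10 genes of 3 kb or more with the largest covered share, list members under a wide region, the 3 peaks on each side of the width limit and regions wide in 2 or more libraries; a few genes this rule names are not reported here, and others named were chosen after their values were seen. Python 3.11.15, pandas 2.3.3, numpy 2.4.6 and matplotlib 3.10.9 were used.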

Additional observations from a re-analysis of the deposited data

How the results depend on the processing

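Most counts followed the width limit and Paro/Neo replicate 2. At a limit of 4000 bp there were 196 wide regions, 194 protein-coding genes under them, 43.4% of regions called in all 4 libraries and 21 regions with Meis1 peaks in 2 or more libraries; at 2500 bp, 24.6% were called in all 4. With Hoxb13 lists of equal length these were 81 regions, 88 genes, 66.7% and 13, and the median covered body share was 25.8%. That share was 37.3% over the 183 genes covered to 10% or more, and 21.1% over genes of any kind. With only peaks of −log10 q of 2 or more, 22.7% were called in all 4, and 22.4% when a call needed 10% of the region covered, which left 7 regions with Meis1 peaks in 2 or more libraries. Leaving out each Hoxb13 library in turn gave 75 to 353 regions, 52 to 315 genes, a median share of 14.3% to 23.9%, 30.1% to 86.7% called in all remaining libraries, and 7 to 33 regions with Meis1 peaks; the low counts and the high shares were those without Paro/Neo replicate 2. The log2 difference in wide peaks between the groups was -0.99 to 2.79 over the same omissions, -0.99 without Paro/Neo replicate 2, 2.79 without Paro/Neo replicate 1, 1.46 without control replicate 1 and 0.35 without control replicate 2. It was 0.21 with lists of equal length. The difference in the percent of wide regions with a Meis1 peak stayed negative in all 16 alternatives, at -8.64 to -1.13, where -1.13 exchanged the second Meis1 replicates, an alternative chosen after seeing the data, and -1.42 needed 10% of a region covered. Leaving out a Meis1 library gave -8.22 to -4.82 and 24 to 32 regions. With the replicate number as a block (sign-flip test of the same-numbered differences), the differences were 0.90 (exact p = 1.00) and -6.52 (exact p = 0.500). The labels give the pairs only a shared number. The correlation of the deviations of same-numbered Hoxb13 libraries was 0.51 over 17634 regions, with only 2 pairs.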

Other observations

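On the mitochondrial genome, which was left out of the regions above, Hoxb13 peaks of 3000 bp or more numbered 2 in each Paro/Neo library, against 2 in control replicate 1 and 0 in control replicate 2. The widest were 6279 bp and 6423 bp in Paro/Neo replicates 1 and 2, against 6377 bp and 1918 bp in control replicates 1 and 2. Meis1 mitochondrial peaks of that width numbered 0 and 2 in Paro/Neo replicates 1 and 2, against 0 in both control replicates.

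By chromosome, the wide regions were most numerous on chromosome 13, with 38, of which 25 lay on Ryr2, and on chromosome 2, with 33. Chromosome Y held 0 and chromosome X held 3.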
